A study of Homo sapiens with 9 samples.

Results

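The cellular defence against oxidants, electrophiles and reactive iron was followed through 43 genes in cells kept in oxaliplatin, cells kept in sorafenib and untreated cells. These genes were chosen with earlier results of these data known. The 43 genes were taken by symbol: the transcription factor NRF2 (gene NFE2L2) and its inhibitor KEAP1, glutathione synthesis and use, the thioredoxin and peroxiredoxin system, quinone and heme enzymes, NADPH supply, aldo-keto reductases, catalase and the superoxide dismutases, and iron and membrane-lipid handling. They correspond to 44 of the 60683 genes in each count file, since SOD2 is listed under 2 identifiers. Of these 44 entries, 40 passed the filter on low counts that left 16159 genes for testing.

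The 9 libraries are RNA-seq of cells labelled HCT-15, a colorectal adenocarcinoma line, wild type per the labels, with 3 libraries in each of 3 groups. The oxaliplatin cells were started at 0.5 µM for 7 days, were stepped through 1, 2 and 4 µM between day 10 and day 30, and were then held at 4 µM. The sorafenib cells were selected in a like manner, with no sorafenib dose stated in the labels, and the untreated cells received no drug. Nothing in the labels says that the 3 libraries of a group came from separate cultures, and their titles share 1 code per group, so the p-values rest on library-to-library spread alone, and that spread could be technical. Both drug groups are populations that survived long exposure, and the labels give no time of harvest. In such bulk RNA, fewer cells that express a gene and less of its RNA per cell cannot be told apart.

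Library totals ran between 15797076 and 20936536 counts. Marker genes went against the label: of 17 colorectal epithelial markers 14 had a median under 1 CPM (counts scaled to the library's size), and 9, including CDX2, CDH1, KRT20 and CEACAM5, had 0 counts in all 9 libraries. Of 17 renal epithelial marker entries 9 had a median of 10 CPM or more, among them the lineage factor PAX8 at 247 to 411 CPM. GGT1 is counted among these 9 under each of its 2 identifiers. Another 4 renal entries had a median under 1 CPM, and 2 of those, SLC22A6 and UMOD, had 0 counts in all 9 libraries. The cells are therefore named here by their treatment only. Summed renal marker levels were 941 to 964 CPM with oxaliplatin, 893 to 909 CPM with sorafenib and 649 to 835 CPM in untreated cells. Summed colorectal markers, almost all of it the keratins KRT8 and KRT18, were 729.9 to 874 CPM with oxaliplatin, 864 to 1138 CPM with sorafenib and 1145 to 1577 CPM in untreated cells. Liver markers (6 of 6) and immune markers (8 of 8) had medians under 1 CPM, as had 6 of 8 fibroblast and endothelial markers. That last list summed to 16.6 to 24.7 CPM with oxaliplatin, 4.13 to 4.94 CPM with sorafenib and 11.4 to 48.9 CPM in untreated cells. Ribosomal protein genes took 4.57% to 5.02% of counts with oxaliplatin, 4.97% to 6.34% with sorafenib and 6.01% to 6.81% in untreated cells. The part of these differences in the results below was not tested.

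As background, NRF2 is held in the cytoplasm by KEAP1, which hands it to a ubiquitin ligase for destruction; oxidants and electrophiles modify KEAP1, and NRF2 then accumulates and binds antioxidant response elements in its target genes. Its targets make glutathione, recycle thioredoxin, supply NADPH and detoxify carbonyls and quinones. Ferritin stores iron in a non-reactive form, NCOA4 delivers ferritin for breakdown, and GPX4 reduces lipid peroxides whose build-up in the presence of iron causes ferroptosis. Platinum drugs can be conjugated to glutathione.

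In the oxaliplatin cells the defence genes moved in both directions. The aldo-keto reductases AKR1B1, AKR1B10 and AKR1C1 were higher than in untreated cells, as were GCLM of glutathione synthesis, CAT, SOD2 and the ferritin receptor NCOA4. Thioredoxin, the peroxiredoxins PRDX1 and PRDX6, SOD1, both ferritin subunits, HMOX1, GPX4 and GSS were among 13 that were lower. The shares were 17.5% higher and 32.5% lower, against 16.2% and 15.5% of all genes. Of these changes 1, that of AKR1B10, reached 2-fold, against 9.36% of all genes called at 2-fold or more. In the sorafenib cells AKR1C2 and AKR1C3 were called lower than in untreated cells, and the other 38 tested did not pass. These calls were 5% of the genes tested here, near the 4.8% of all genes, and neither held under all 17 alternative fits.

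Calls were made by edgeR's quasi-likelihood F test at an adjusted p under 0.05 (Benjamini-Hochberg, over the 16159 genes tested), and fold changes are log2 values ± SE. For oxaliplatin against untreated, 20 of 40 were called (7 higher, 13 lower), against 31.7% of all genes tested (16.2% higher, 15.5% lower). With library size as the sole scaling, which shifts the median of all genes to a log2 fold change of 0.13 against 0.016, the split was 7 higher and 12 lower. With a correction for GC content and transcript length it was 5 higher and 17 lower. Over all genes the splits with library size and with that correction were 3395 and 1794 of 16159, and 1837 and 3334 of 16005. The median log2 fold change of the 40 was -0.27. For sorafenib against untreated, 2 of 40 were called, both lower, against 4.8% of all genes (2.82% higher, 1.97% lower), with a median of -0.18 against 2.53e-05 for all genes. DESeq2 called 9, 3 of them higher and 6 lower. It also called more over all genes, 1805 of 16264 (1010 higher, 795 lower). For oxaliplatin against sorafenib, 10 of 40 were called (6 higher, 4 lower), against 10.3% of all genes (5.2% higher, 5.07% lower), with a median of -0.15 against -0.0056 for all genes. That split was 7 higher and 10 lower by DESeq2, 7 higher and 2 lower by library size, and 6 higher and 9 lower with the GC and length correction. All genes split there into 1173 and 1261 of 16264, 1072 and 599 of 16159, and 984 and 1375 of 16005. Without oxaliplatin replicate 1 the 10 became 2, without oxaliplatin replicate 2 or sorafenib replicate 3 they became 4, and without sorafenib replicate 1 they became 6. Over all genes the 1659 calls became 572, 723, 787 and 825 in these fits, in that order. The 2 sorafenib calls against untreated became 6 without sorafenib replicate 1, 1 without untreated replicate 1 or 3, and 0 without any 1 of the other 6 libraries. Over all genes, the 775 calls there became 1743 without sorafenib replicate 1. Without untreated replicate 1 or 3 they became 1641 and 153, and 113 to 759 without 1 of the other 6. The comparisons with untreated cells share the 3 untreated libraries.

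All 3 oxaliplatin values lay above all 3 untreated values for 8 of the 40 and below them for 21, against 24.9% and 23.2% of all genes (48.1% in all). For sorafenib against untreated the counts were 4 above and 10 below, against 15.5% and 14.3% of all genes (29.8% in all). Between the drug groups, oxaliplatin lay above sorafenib for 8 and below for 17, against 17.3% and 17.6% of all genes (34.9% in all). At 2-fold or more, 0 of the 40 were called in sorafenib against untreated, against 1.94% of all genes, and 1, AKR1B1, in oxaliplatin against sorafenib, against 3.73%.

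**Figure D1:**
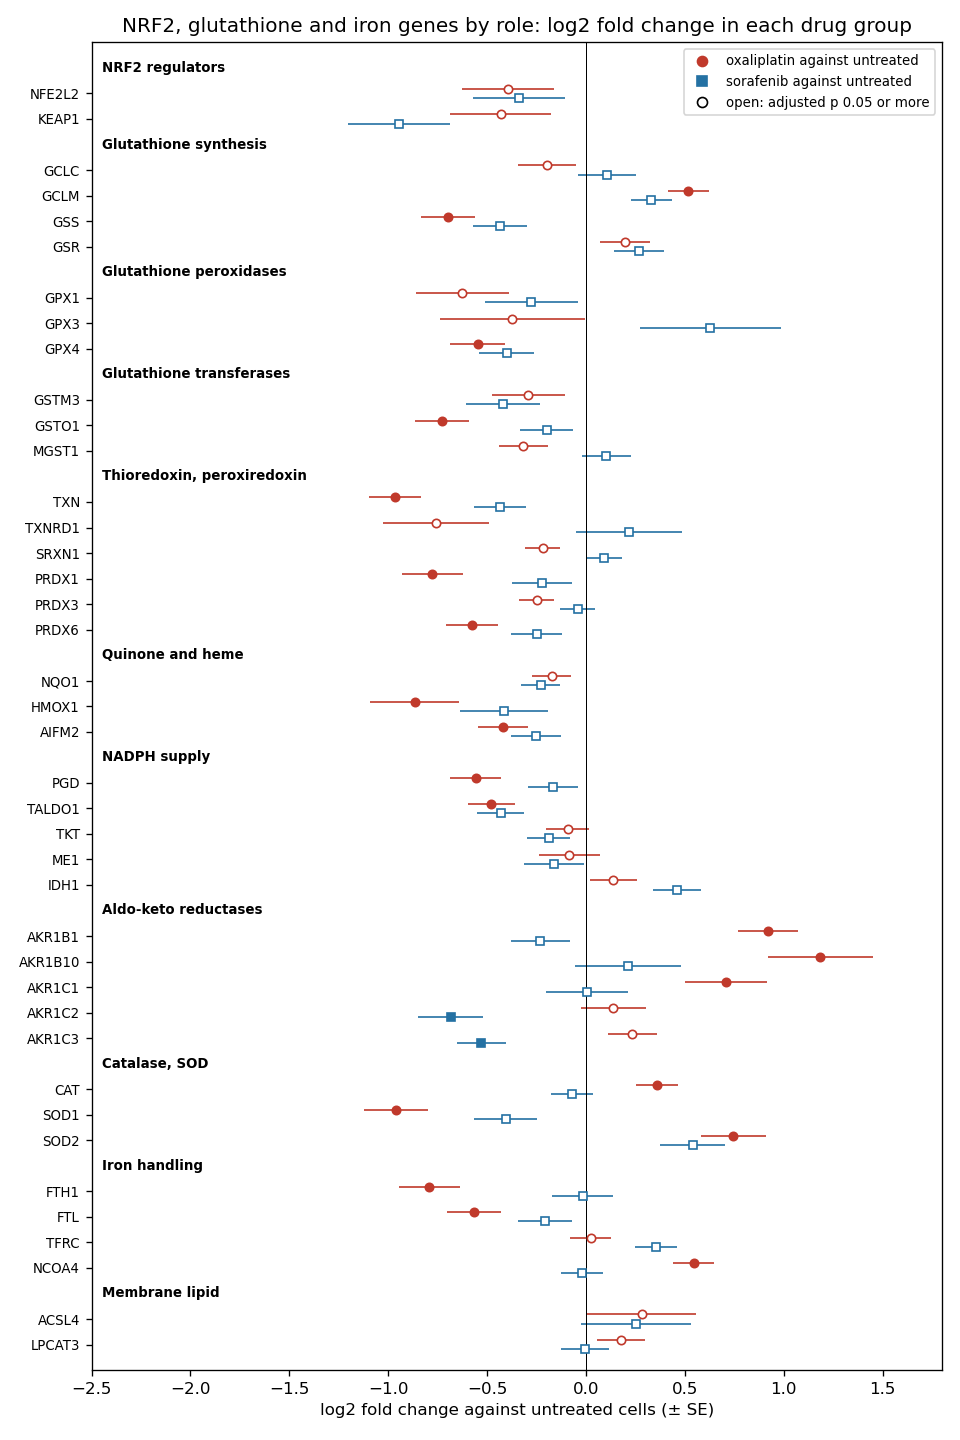
Log2 fold change (x axis, ± SE) of each of the 40 tested genes, by role, in oxaliplatin cells (circles) and sorafenib cells (squares) against untreated cells; filled symbols have an adjusted p under 0.05. AKR1B10 and AKR1B1 carry the filled oxaliplatin circles farthest to the right (1.18 and 0.92), and thioredoxin and SOD1 those farthest to the left (-0.97 and -0.96).

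The DNA element that NRF2 binds has the core TGACNNNGC. This core was looked for on both strands of the 250 bases before each transcription start in RefSeq's promoter table (GRCh38.p14), where 35 of the 43 genes were found. It stood in a window of 10 of the 35 (28.6%), against 13.2% of the 27305 genes of the table. The 10 were AIFM2, GCLM, GPX2, GSTO1, GSTP1, IDH1, KEAP1, ME1, PGD and TXNRD1. The 4 of them that were called in oxaliplatin against untreated are printed: GCLM was higher, and GSTO1, PGD and AIFM2 were lower. IDH1, KEAP1, ME1 and TXNRD1 were tested and not called, and GPX2 and GSTP1 were not tested. Over all genes tested 31.7% were called, 16.2% higher and 15.5% lower. Whether the core bears on the calls was not tested. Capitals mark the core, read in the direction of the gene, in 29 bases.
GCLM, chr1:93909446-93909474 (minus strand): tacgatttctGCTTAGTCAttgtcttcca
GSTO1, chr10:104254656-104254684 (plus strand): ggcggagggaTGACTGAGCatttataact
GSTO1, chr10:104254721-104254749 (plus strand): cgagatgcttTGACACAGCcccttaagat
PGD, chr1:10398853-10398881 (plus strand): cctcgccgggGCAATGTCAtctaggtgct
AIFM2, chr10:70132829-70132857 (minus strand): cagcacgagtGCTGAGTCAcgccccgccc
A match describes these letters and is not a measured binding site.

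The regulators themselves were not called. NFE2L2 had 95.4, 98.2 and 141 CPM with oxaliplatin, 130.1, 74.9 and 142 CPM with sorafenib and 149, 140.3 and 151 CPM in untreated cells. The untreated libraries lay close together, whereas 1 library of each drug group lay within their range and the rest below it. Its log2 fold change was -0.40 ± 0.23, adjusted p = 0.217 with oxaliplatin and -0.34 ± 0.23, adjusted p = 0.389 with sorafenib. KEAP1 had 51.5, 50.0 and 66.3 CPM with oxaliplatin, 55.6, 23.9 and 37.7 CPM with sorafenib and 73.0, 79.4 and 73.8 CPM in untreated cells, so that every drug library lay below every untreated one. Its log2 fold change was -0.43 ± 0.26, adjusted p = 0.221 with oxaliplatin and -0.95 ± 0.26, adjusted p = 0.0630 with sorafenib. The oxaliplatin difference of KEAP1 was called in the fit on the 2 compared groups alone (adjusted p = 0.0476, range over alternatives 0.0476 to 0.426). The sorafenib difference of KEAP1 was called by DESeq2 (adjusted p = 0.00894) and without sorafenib replicate 1 (adjusted p = 0.0132). NFE2L2 shares 8.83% of its 100-base stretches with the overlapping gene AC019080.1.

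**Figure D2:**
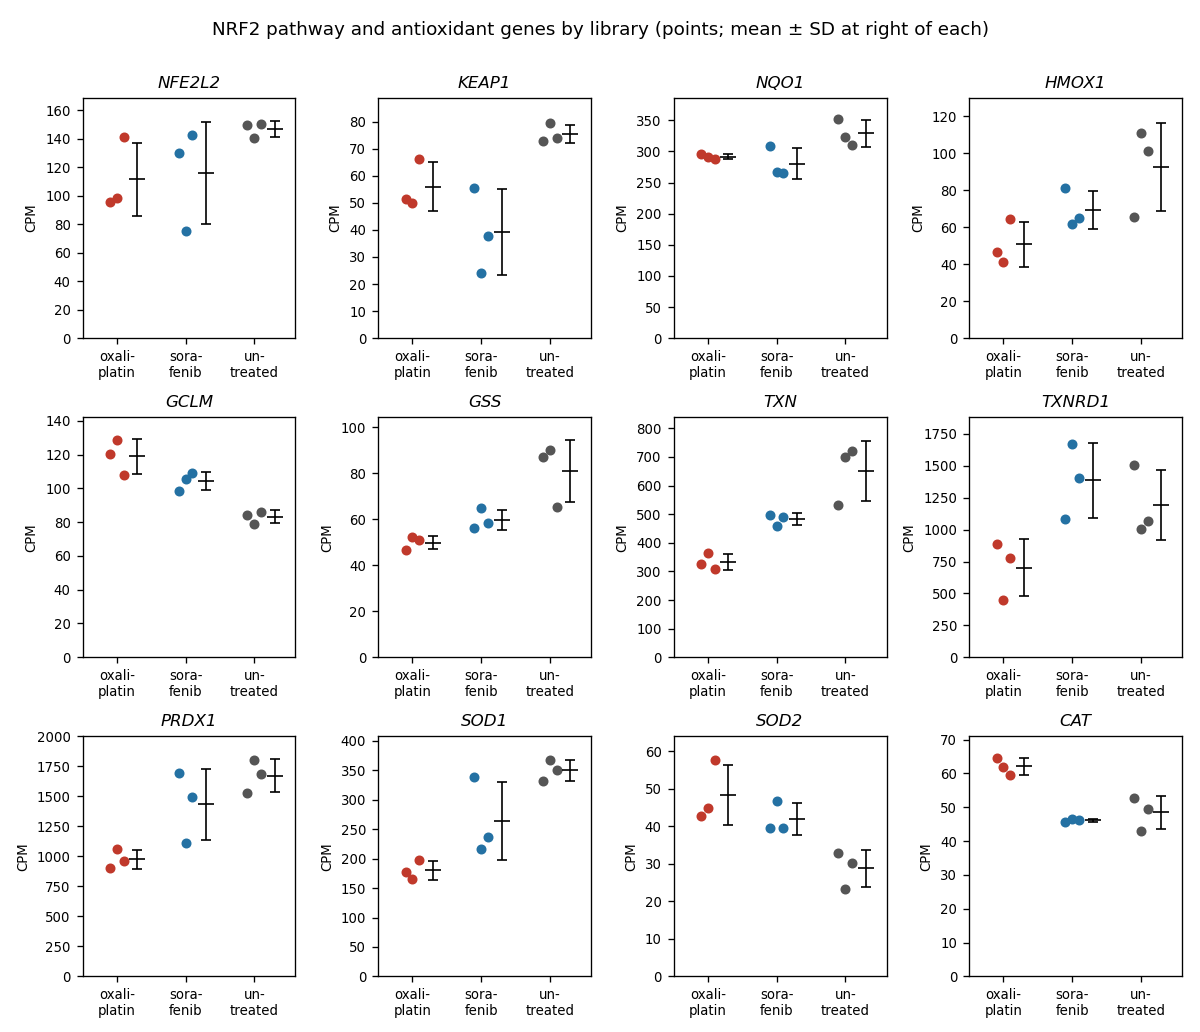
Level in CPM (y axis, from 0) of 12 genes in each of the 9 libraries, by treatment (x axis); points are libraries and the bar beside each group is its mean ± SD (n = 3). TXN, PRDX1 and SOD1 sit lower in all 3 oxaliplatin libraries than in all 3 untreated libraries, GCLM, SOD2 and CAT sit higher, and TXNRD1 spreads widely within each group.

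Glutathione synthesis split. GCLM, the modifier subunit of the rate-limiting glutamate-cysteine ligase, had 121, 128 and 108 CPM with oxaliplatin, 98.7, 106 and 109 CPM with sorafenib and 84.3, 78.8 and 86.1 CPM in untreated cells. Both drug groups lay above the untreated one, and the oxaliplatin difference was called (0.52 ± 0.10, adjusted p = 0.00601) while the sorafenib one was not (0.33 ± 0.10, adjusted p = 0.0835). With the GC and length correction the oxaliplatin log2 fold change of GCLM was 0.24, and adjusted p over all alternatives ran between 0.000269 and 0.0299. GSS, glutathione synthetase, which adds glycine in the second step, went the other way with 46.8, 52.1 and 50.9 CPM with oxaliplatin, 56.2, 64.8 and 58.6 CPM with sorafenib and 87.2, 90.1 and 65.4 CPM in untreated cells. Both drug groups lay below the untreated one, and GSS fell with oxaliplatin (-0.70 ± 0.14, adjusted p = 0.00590) but not past the threshold with sorafenib (-0.44 ± 0.14, adjusted p = 0.0863), where DESeq2 called it (adjusted p = 0.0404). The catalytic subunit GCLC (-0.20 ± 0.15, adjusted p = 0.329 with oxaliplatin) and the reductase GSR (0.20 ± 0.13, adjusted p = 0.260) were not called, although GCLC was called lower with the GC and length correction (adjusted p = 0.00742, range over alternatives 0.00742 to 0.807). In oxaliplatin against sorafenib, GCLM measured 0.19 ± 0.10 (adjusted p = 0.262) and GCLC -0.30 ± 0.15 (adjusted p = 0.211), and GSS and GSR did not pass either. With the GC and length correction GCLC was called lower there (-0.45, adjusted p = 0.0323; range over alternatives 0.0323 to 0.442).

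Among glutathione peroxidases, GPX4, the enzyme that reduces lipid hydroperoxides in membranes, had 226, 238 and 245 CPM with oxaliplatin, 319, 236 and 229.8 CPM with sorafenib and 314, 384 and 338 CPM in untreated cells. Oxaliplatin values lay below all untreated ones, and 1 sorafenib library reached the untreated range. GPX4 fell with oxaliplatin (-0.55 ± 0.14, adjusted p = 0.0165). That call was lost without untreated replicate 2 (adjusted p = 0.0641), oxaliplatin replicate 1 (0.0632) or oxaliplatin replicate 2 (0.0507), and with the GC and length correction, where the log2 fold change was -0.25 (adjusted p = 0.131, the highest of its alternatives, down to 0.00366). With sorafenib, GPX4 stood at -0.40 ± 0.14, adjusted p = 0.113, and it was called there without sorafenib replicate 1 (adjusted p = 0.0220). GPX1, a cytosolic peroxidase, had 39.4, 45.0 and 65.2 CPM with oxaliplatin against 71.6, 81.4 and 77.6 CPM in untreated cells, without overlap, and did not pass (-0.63 ± 0.24, adjusted p = 0.0689); without oxaliplatin replicate 3 or sorafenib replicate 1 it did (adjusted p = 0.0242 and 0.0315). The files type GPX1 as a polymorphic pseudogene, and 4.25% of its 100-base stretches occur in GPX1P1. GPX3, the secreted form, was low at 1.28 to 5.34 CPM and was not called in any comparison, except against sorafenib with the replicate number as a block (-1.03, adjusted p = 0.0394; range over alternatives 0.0394 to 0.287), and GPX2, the gastrointestinal form, had 26 counts in the 9 libraries together and was not tested.

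GSTP1, a glutathione transferase abundant in many tumour lines, had 0 counts in every library, which allows up to 0.138 to 0.182 CPM per library at a floor of 3 counts (counting error only). GSTO1, an omega-class transferase, had 52.1, 55.2 and 48.8 CPM with oxaliplatin, 85.7, 69.9 and 69.1 CPM with sorafenib and 72.2, 94.2 and 91.8 CPM in untreated cells. Each oxaliplatin value was below the 6 others, and GSTO1 fell against untreated cells (-0.73 ± 0.14, adjusted p = 0.00512). Against sorafenib it also fell (-0.53 ± 0.14, adjusted p = 0.0377), a call that held without untreated replicate 1 or 2 but was lost on leaving out any of the other 7 libraries in turn (adjusted p = 0.0538 to 0.115). Library-size scaling and the replicate number as a block lost that GSTO1 call as well (adjusted p = 0.0501 and 0.0950). MGST1, a microsomal transferase, was 100.1 to 127 CPM with oxaliplatin, 139 to 174 CPM with sorafenib and 139 to 154 CPM in untreated cells, and was not called (-0.32 ± 0.12, adjusted p = 0.0766 with oxaliplatin against untreated; -0.42 ± 0.12, adjusted p = 0.0607 against sorafenib). MGST1 was called lower against untreated with the GC and length correction (-0.65, adjusted p = 0.00862; range over alternatives 0.00862 to 0.224). Against sorafenib it was called with that correction (-0.58, adjusted p = 0.0275) and by DESeq2 (adjusted p = 0.0373), within a range over alternatives of 0.0275 to 0.166. GSTM3 was at 3.46 to 6.04 CPM and was not called.

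Of the 6 genes of the thioredoxin and peroxiredoxin system, 3 were called in oxaliplatin against untreated, each lower, against 31.7% of all genes called and 15.5% called lower. TXN, thioredoxin, the small protein that reduces peroxiredoxins and other disulfides, had 327, 364 and 308 CPM with oxaliplatin, 498, 458 and 489.5 CPM with sorafenib and 531, 699 and 722 CPM in untreated cells. The 3 groups did not overlap, with oxaliplatin lowest and untreated highest. TXN fell with oxaliplatin (-0.97 ± 0.13, adjusted p = 0.00174), and stood at -0.43 ± 0.13, adjusted p = 0.0791 with sorafenib, called there by DESeq2 (adjusted p = 0.0446) and without untreated replicate 1 (0.0187). The fall of TXN with oxaliplatin against sorafenib (-0.53 ± 0.13, adjusted p = 0.0314) was lost without any 1 of the 6 drug libraries (adjusted p = 0.0593 to 0.109), and with the replicate number as a block (0.0746).

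PRDX1, a peroxiredoxin that removes hydrogen peroxide, had 907, 1064 and 959.9 CPM with oxaliplatin, 1698, 1113 and 1491 CPM with sorafenib and 1531, 1800.2 and 1690.1 CPM in untreated cells. The 3 oxaliplatin values lay below the 6 others, and sorafenib overlapped untreated. It fell with oxaliplatin against untreated (-0.78 ± 0.15, adjusted p = 0.00616) and against sorafenib (-0.55 ± 0.15, adjusted p = 0.0481). The second of these calls held without sorafenib replicate 2 and was lost without any 1 of the other 8 libraries (adjusted p = 0.0522 to 0.162). That call was also lost with library-size scaling, a minimum mean of 1 CPM or the 2 groups alone (adjusted p = 0.0507 to 0.0739). The replicate number as a block and the GC and length correction lost it too (0.115 and 0.0639). PRDX6, which also reduces phospholipid peroxides, fell with oxaliplatin (-0.58 ± 0.13, adjusted p = 0.00975), at 351 to 379 CPM against 467 to 621 CPM in untreated cells. PRDX3, the mitochondrial form (-0.25 ± 0.09, adjusted p = 0.0558), and SRXN1, sulfiredoxin, which repairs over-oxidised peroxiredoxins (-0.22 ± 0.09, adjusted p = 0.0844), did not pass with oxaliplatin against untreated. PRDX3 passed without sorafenib replicate 1 (adjusted p = 0.0429). SRXN1 shares 84.5% of its 100-base stretches with AL121758.1, which held 1 count in all, and PRDX1 overlaps MMACHC on the opposite strand over 379 exon bases. TXNRD1, thioredoxin reductase, an NRF2 target, had 885, 449.9 and 774 CPM with oxaliplatin, 1082, 1674 and 1402 CPM with sorafenib and 1504, 1002 and 1067 CPM in untreated cells. Every oxaliplatin value lay below every other value, but the spread within groups was wide, and TXNRD1 did not pass against untreated (-0.76 ± 0.27, adjusted p = 0.0570) or against sorafenib (-0.98 ± 0.27, adjusted p = 0.0504). DESeq2 called both (adjusted p = 0.0171 and 0.00376), and the fall against sorafenib was also called without untreated replicate 1 (0.0430).

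NQO1, the quinone reductase often read as an index of NRF2 activity, had 296, 291 and 288 CPM with oxaliplatin, 309, 266 and 266 CPM with sorafenib and 353, 324 and 310.1 CPM in untreated cells. Both drug groups lay just below the untreated one and neither difference passed (-0.17 ± 0.10, adjusted p = 0.203 with oxaliplatin, -0.23 ± 0.10, adjusted p = 0.183 with sorafenib). HMOX1, heme oxygenase, which frees iron from heme, had 46.5, 41.4 and 64.5 CPM with oxaliplatin, 81.2, 61.9 and 65.0 CPM with sorafenib and 65.5, 111 and 101 CPM in untreated cells. The oxaliplatin and untreated ranges missed each other by about 1 CPM, and HMOX1 fell (-0.87 ± 0.23, adjusted p = 0.0179), a call lost without untreated replicate 2 (adjusted p = 0.0672), untreated replicate 3 (0.0571), oxaliplatin replicate 1 (0.0676) or oxaliplatin replicate 2 (0.0654). AIFM2, which encodes the ferroptosis suppressor FSP1, a coenzyme Q reductase, had 26.4, 25.3 and 32.2 CPM with oxaliplatin, 34.2, 30.8 and 29.1 CPM with sorafenib and 35.7, 39.0 and 37.5 CPM in untreated cells. It fell with oxaliplatin (-0.42 ± 0.13, adjusted p = 0.0313), and that call was lost without the same 4 libraries (adjusted p = 0.0759 to 0.110). Library-size scaling, no filter on low counts and the replicate number as a block lost the AIFM2 call as well (adjusted p = 0.0537 to 0.0853).

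Of the 5 enzymes of NADPH supply, PGD and TALDO1 fell with oxaliplatin, where 31.7% of all genes were called and 15.5% were called lower. PGD, of the oxidative pentose phosphate pathway, had 48.2, 47.6 and 57.7 CPM with oxaliplatin, 71.5, 69.8 and 59.8 CPM with sorafenib and 84.5, 70.4 and 70.9 CPM in untreated cells, with the oxaliplatin values below the 6 others (-0.56 ± 0.13, adjusted p = 0.0107 against untreated). TALDO1, transaldolase of the non-oxidative branch, had 207, 218 and 214 CPM with oxaliplatin, 257, 201 and 202 CPM with sorafenib and 277, 318 and 294 CPM in untreated cells. Both drug groups lay below untreated, and TALDO1 fell with oxaliplatin (-0.48 ± 0.12, adjusted p = 0.0138; lost without untreated replicate 2 or oxaliplatin replicate 1, adjusted p = 0.0551 and 0.0549). With sorafenib it did not pass (-0.43 ± 0.12, adjusted p = 0.0613), except by DESeq2 (adjusted p = 0.0214) and without sorafenib replicate 1 (0.0175). IDH1, the cytosolic NADP-dependent isocitrate dehydrogenase, was the exception in direction, at 101, 104 and 97.4 CPM with sorafenib against 74.7, 78.4 and 66.7 CPM in untreated cells, above all of them and not past the threshold (0.46 ± 0.12, adjusted p = 0.0561; DESeq2 adjusted p = 0.0183). TKT and ME1 were not called, and their log2 fold changes with oxaliplatin, -0.09 and -0.08, changed sign under library-size scaling (0.02 and 0.04). With the GC and length correction TKT was -0.35 and was called lower (adjusted p = 0.0423; range over alternatives 0.0423 to 0.894).

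The aldo-keto reductases, which reduce reactive carbonyls, sugars, steroids and retinoids with NADPH, were called higher with oxaliplatin than with sorafenib in 4 of the 5 genes. Over all genes 5.2% were called higher there. AKR1B1, aldose reductase (ENSG00000085662, chr7:134442356-134459284), had 413, 304 and 364 CPM with oxaliplatin, 182, 158 and 148 CPM with sorafenib and 159, 200.0 and 212 CPM in untreated cells. Each oxaliplatin library lay above the 6 others, and sorafenib overlapped untreated. AKR1B1 was higher with oxaliplatin than in untreated cells (0.92 ± 0.15, adjusted p = 0.00321) and than with sorafenib (1.15 ± 0.15, adjusted p = 0.00213), and both calls held under all 17 alternative fits, left-out libraries included. AKR1B10, a retinal and aldehyde reductase from the neighbouring locus (ENSG00000198074, chr7:134527567-134541412), had 11.5, 9.93 and 8.45 CPM with oxaliplatin, 5.27, 4.71 and 5.25 CPM with sorafenib and 6.39, 3.81 and 2.97 CPM in untreated cells. Oxaliplatin again lay above the 6 others (1.18 ± 0.27, adjusted p = 0.00957 against untreated). The rise of AKR1B10 over sorafenib (0.97 ± 0.26, adjusted p = 0.0436) was lost without untreated replicate 2 (adjusted p = 0.0543) and without any 1 of oxaliplatin replicates 1 and 2 and the 3 sorafenib replicates (0.106 to 0.149). The replicate number as a block lost that rise too (adjusted p = 0.0567).

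The AKR1C genes are hydroxysteroid dehydrogenases in a cluster on chromosome 10; against untreated cells, AKR1C1 was called higher with oxaliplatin, and AKR1C2 and AKR1C3 were called lower with sorafenib. AKR1C3 (ENSG00000196139, chr10:5035354-5107686), which also reduces prostaglandins, had 248, 236 and 230.1 CPM with oxaliplatin, 152, 144 and 125 CPM with sorafenib and 215, 221 and 171 CPM in untreated cells. The 3 groups did not overlap, with oxaliplatin highest and sorafenib lowest. It fell with sorafenib against untreated (-0.53 ± 0.12, adjusted p = 0.0426), did not pass with oxaliplatin against untreated (0.23 ± 0.12, adjusted p = 0.172) and was higher with oxaliplatin than with sorafenib (0.76 ± 0.12, adjusted p = 0.00598), the last call holding under all 17 alternative fits. AKR1C2 (ENSG00000151632, chr10:4987400-5018031), which inactivates dihydrotestosterone, had 15.0, 12.3 and 14.4 CPM with oxaliplatin, 7.99, 7.72 and 7.88 CPM with sorafenib and 15.3, 11.7 and 10.9 CPM in untreated cells. The sorafenib libraries were nearly equal and lay below the 6 others, and AKR1C2 fell with sorafenib against untreated (-0.68 ± 0.16, adjusted p = 0.0457). With oxaliplatin it was higher than with sorafenib (0.82 ± 0.16, adjusted p = 0.0147; lost without oxaliplatin replicate 1 or sorafenib replicate 3, adjusted p = 0.0656 and 0.0527). AKR1C1 (ENSG00000187134, chr10:4963253-4983283), which inactivates progesterone, had 15.0, 13.9 and 13.6 CPM with oxaliplatin, 10.5, 8.57 and 6.97 CPM with sorafenib and 10.9, 8.35 and 6.84 CPM in untreated cells. Oxaliplatin lay above the 6 others, and AKR1C1 was higher than in untreated cells (0.71 ± 0.21, adjusted p = 0.0272) without passing against sorafenib (0.70 ± 0.21, adjusted p = 0.0574), where it passed without untreated replicate 1 (adjusted p = 0.0382). Neither sorafenib call was kept throughout. That of AKR1C2 was lost on leaving out any 1 of the 9 libraries (adjusted p = 0.0529 to 0.167), and that of AKR1C3 on leaving out any but untreated replicate 3 and sorafenib replicate 1 (0.0509 to 0.160). Both were lost with library-size scaling, on the 2 groups alone and with the replicate number as a block (adjusted p = 0.0531 to 0.102). With no filter on low counts AKR1C2 was lost as well (0.0536). The rise of AKR1C1 was lost without untreated replicate 2 or 3 or oxaliplatin replicate 1 or 2 (adjusted p = 0.0640 to 0.0947), and with the GC and length correction, where it was 0.31 (adjusted p = 0.301; range over alternatives 0.0103 to 0.301).

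**Figure D3:**
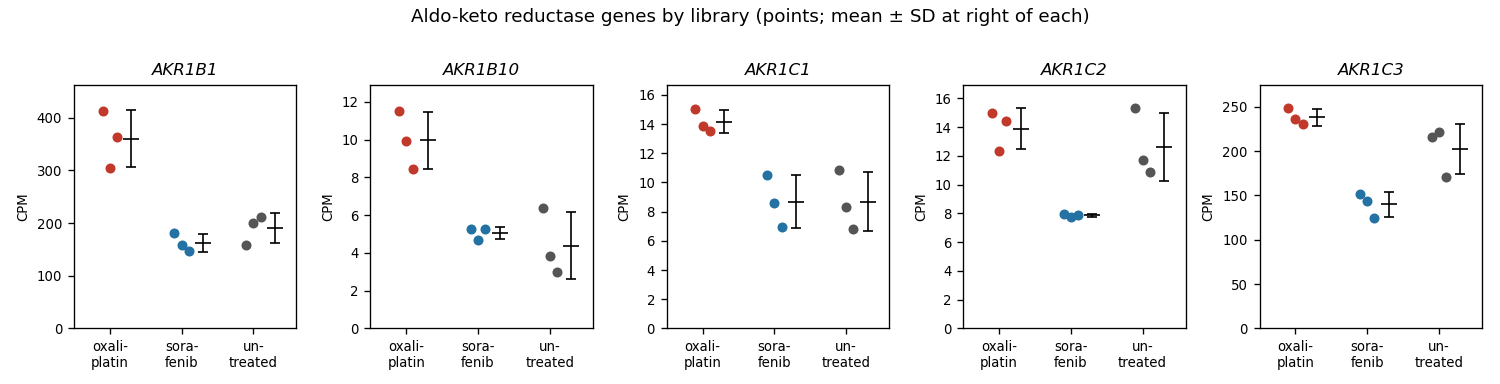
Level in CPM (y axis, from 0) of the 5 aldo-keto reductase genes in each of the 9 libraries, by treatment (x axis); points are libraries and the bar beside each group is its mean ± SD (n = 3). Oxaliplatin libraries sit above untreated ones for AKR1B1, AKR1B10, AKR1C1 and AKR1C3, and sorafenib libraries sit below untreated ones for AKR1C2 and AKR1C3.

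The AKR1C1 and AKR1C2 rows need care because the genes are near copies: 16.7% of the 100-base stretches of AKR1C1 transcripts and 23.1% of those of AKR1C2 occur in another gene, mostly in each other, so reads can be split between them or lost. Their RefSeq promoters (GRCh38.p14, 250 bases before the start) are printed because the pair differs by 1 of 246 aligned bases (99.6% identical), while AKR1C3 is 79.1% identical to AKR1C1. Capitals mark the aligned bases that differ between AKR1C1 and AKR1C2 in those lines, and the aligned bases of AKR1C3 that differ from AKR1C1 in its own. AKR1C3 and AKR1C1 align over 239 bases. Bases left out of an alignment have no counterpart and also stand in lower case. AKR1C3 has 2 windows in the table, of which the first by position is shown.
AKR1C1, chr10:4963165-4963414 (plus strand): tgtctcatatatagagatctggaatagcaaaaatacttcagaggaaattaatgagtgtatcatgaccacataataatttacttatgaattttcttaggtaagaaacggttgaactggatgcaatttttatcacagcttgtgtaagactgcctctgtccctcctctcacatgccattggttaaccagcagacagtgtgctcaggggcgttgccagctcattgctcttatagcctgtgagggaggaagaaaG
AKR1C2, chr10:5003858-5004107 (minus strand): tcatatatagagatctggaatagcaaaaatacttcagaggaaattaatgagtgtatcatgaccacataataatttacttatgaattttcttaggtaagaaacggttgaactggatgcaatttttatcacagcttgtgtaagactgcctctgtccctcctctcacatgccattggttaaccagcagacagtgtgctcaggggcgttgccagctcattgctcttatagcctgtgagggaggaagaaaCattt
AKR1C3, chr10:5048531-5048780 (plus strand): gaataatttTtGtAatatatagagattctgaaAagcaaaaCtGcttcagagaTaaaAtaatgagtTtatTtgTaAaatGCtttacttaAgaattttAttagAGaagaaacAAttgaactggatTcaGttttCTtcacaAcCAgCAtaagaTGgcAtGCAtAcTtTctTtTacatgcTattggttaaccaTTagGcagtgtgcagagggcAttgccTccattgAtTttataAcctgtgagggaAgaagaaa
None of the 3 holds the core TGACNNNGC in these 250 bases, which says only that these letters are not in the window. AKR1C2 was called lower with sorafenib than in untreated cells and AKR1C1 was not; whether the changes of the pair differ from each other was not tested.

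Of the superoxide dismutases and catalase, the 3 entries tested were called in oxaliplatin against untreated, SOD1 lower and SOD2 and CAT higher. Over all genes 31.7% were called there (16.2% higher, 15.5% lower). SOD1, the cytosolic copper-zinc enzyme, had 177, 165 and 198 CPM with oxaliplatin, 339, 217 and 236 CPM with sorafenib and 332, 367 and 351 CPM in untreated cells. The oxaliplatin libraries lay below the 6 others, and SOD1 fell against untreated (-0.96 ± 0.16, adjusted p = 0.00348) and not past the threshold against sorafenib (-0.55 ± 0.16, adjusted p = 0.0571; without sorafenib replicate 2, adjusted p = 0.0440). With sorafenib, SOD1 did not pass against untreated (-0.41 ± 0.16, adjusted p = 0.151; without sorafenib replicate 1, adjusted p = 0.0180). SOD2, the mitochondrial manganese enzyme, had 42.7, 44.9 and 57.6 CPM with oxaliplatin, 39.5, 46.7 and 39.5 CPM with sorafenib and 33.0, 23.4 and 30.2 CPM in untreated cells. Both drug groups lay above untreated. SOD2 was higher with oxaliplatin (0.74 ± 0.16, adjusted p = 0.00921) and did not pass with sorafenib (0.54 ± 0.16, adjusted p = 0.0824; DESeq2 adjusted p = 0.0401). With the GC and length correction the oxaliplatin value of SOD2, whose exons sum to 16493 bases, was 0.13 (adjusted p = 0.573; range over alternatives 0.000628 to 0.573). The other SOD2 identifier held 13 counts in all and was not tested. CAT, catalase, had 64.7, 62.0 and 59.6 CPM with oxaliplatin, 45.6, 46.4 and 46.2 CPM with sorafenib and 52.9, 43.1 and 49.4 CPM in untreated cells. All 3 oxaliplatin values lay above the 6 others, and CAT was higher than in untreated cells (0.36 ± 0.11, adjusted p = 0.0290) and than with sorafenib (0.43 ± 0.11, adjusted p = 0.0320). The CAT call against untreated was lost without untreated replicate 2 or 3 or oxaliplatin replicate 1 or 2 (adjusted p = 0.0717 to 0.117), and that against sorafenib without untreated replicate 3, oxaliplatin replicate 1 or 2 or any 1 sorafenib replicate (0.0526 to 0.120). With no filter on low counts or the replicate number as a block, both CAT calls were lost (adjusted p = 0.0663 to 0.0858). That against untreated was also lost on the 2 groups alone (0.0534).

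Of the 4 iron genes tested, 3 were called in oxaliplatin against untreated (1 higher, 2 lower) and 2 in oxaliplatin against sorafenib (1 higher, 1 lower). The shares of all genes called were 31.7% (16.2% higher, 15.5% lower) and 10.3% (5.2% higher, 5.07% lower). FTH1, the ferritin heavy chain with the ferroxidase site, had 786, 746 and 1102 CPM with oxaliplatin, 1532, 1474 and 1502 CPM with sorafenib and 1382, 1710.0 and 1469 CPM in untreated cells. The oxaliplatin libraries lay below the 6 others. FTH1 fell against untreated (-0.79 ± 0.15, adjusted p = 0.00585) and against sorafenib (-0.78 ± 0.15, adjusted p = 0.0143; lost without oxaliplatin replicate 1 or 2, adjusted p = 0.0667 and 0.0558), and stood at -0.02 ± 0.15 with sorafenib against untreated (adjusted p = 0.963). FTL, the light chain, had 2531, 2557 and 2532 CPM with oxaliplatin, 3519.7, 3158 and 3095 CPM with sorafenib and 3029.8, 4407 and 3854 CPM in untreated cells. The oxaliplatin libraries of FTL were nearly equal and below the 6 others, and FTL fell against untreated (-0.57 ± 0.14, adjusted p = 0.0129) and did not pass against sorafenib (-0.36 ± 0.14, adjusted p = 0.122). The call against untreated was lost with the GC and length correction, at -0.33 (adjusted p = 0.0772; range over alternatives 0.00146 to 0.0772).

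NCOA4, the cargo receptor that takes ferritin to the lysosome, had 303, 319.6 and 271 CPM with oxaliplatin, 186, 205 and 214 CPM with sorafenib and 219, 195 and 199 CPM in untreated cells. The oxaliplatin libraries lay above the 6 others, and NCOA4 was higher than in untreated cells (0.54 ± 0.11, adjusted p = 0.00577) and than with sorafenib (0.56 ± 0.11, adjusted p = 0.0109; without oxaliplatin replicate 1, adjusted p = 0.0522). TFRC, the transferrin receptor that brings iron in, had 113, 117 and 110.2 CPM with oxaliplatin, 127, 146 and 155 CPM with sorafenib and 109.9, 105 and 119.5 CPM in untreated cells. The sorafenib libraries lay above the 6 others, but TFRC did not pass with sorafenib (0.35 ± 0.11, adjusted p = 0.0776), except by DESeq2 (adjusted p = 0.0478) and without sorafenib replicate 1 (0.0315). With oxaliplatin, TFRC measured 0.02 ± 0.11, adjusted p = 0.889, a value that turned to -0.34 with the GC and length correction and was then called (adjusted p = 0.0112; range over alternatives 0.0112 to 1). Against sorafenib, TFRC with oxaliplatin measured -0.33 ± 0.11, adjusted p = 0.0742, and passed without sorafenib replicate 1 (adjusted p = 0.0499). SLC40A1, the iron exporter ferroportin, had 3 counts in the 9 libraries together. FTH1 shares 8.23% and FTL 3.34% of their 100-base stretches with pseudogenes, and FTH1 overlaps BEST1 on the opposite strand over 1267 exon bases.

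**Figure D4:**
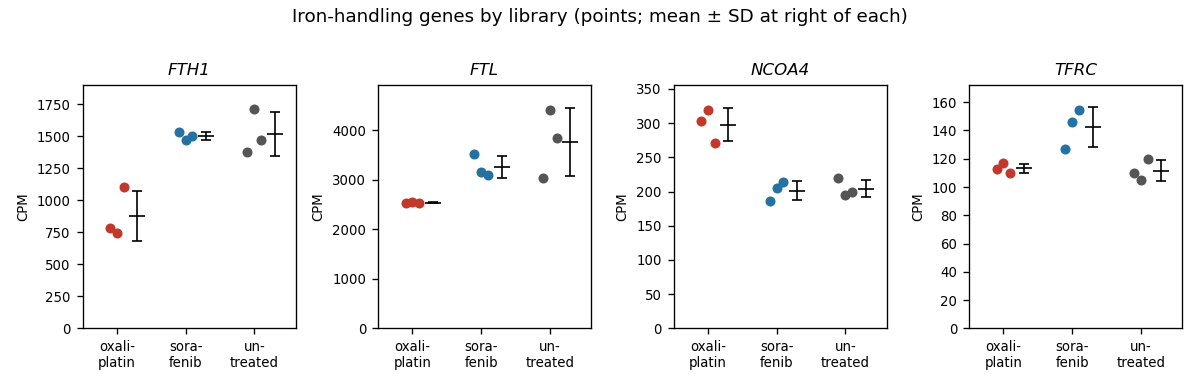
Level in CPM (y axis, from 0) of 4 iron-handling genes in each of the 9 libraries, by treatment (x axis); points are libraries and the bar beside each group is its mean ± SD (n = 3). Oxaliplatin libraries sit lowest for FTH1 and FTL and highest for NCOA4, and sorafenib libraries sit highest for TFRC.

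The enzymes that load polyunsaturated fatty acids into phospholipids, the substrates of lipid peroxidation, were not called. ACSL4 had 216, 134 and 108 CPM with oxaliplatin, 125, 175 and 149 CPM with sorafenib and 89.6, 150.3 and 137 CPM in untreated cells, with wide overlap. LPCAT3 ran between 29.8 and 41.9 CPM over the 9 libraries, and shares 3100 exon bases with EMG1 on the opposite strand, so that without a known strand setting their reads cannot be told apart.

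On a scale per transcript length (RPKM, from CPM and the summed exon length in GENCODE v29), the untreated cells held FTL highest at 4287, then PRDX1 at 1099.6, FTH1 at 749, TXN at 570.0 and PRDX6 at 232. The lowest tested were GPX3 at 0.902 and AKR1C1 at 0.990, which together with GSTM3 at 1.15 lie too close together to rank beyond their spread. The 13 genes called lower with oxaliplatin had a median exon length of 2030 bases and a median untreated level of 171 RPKM. The 7 called higher had medians of 4079 bases and 13.5 RPKM, and the 20 not called 4723 bases and 19.8 RPKM. Over all genes tested, the median length was 3130 bases for those called lower, 6909 for those called higher and 4165 for those not called, so length moved with direction outside the defence genes too. With the GC and length correction, the oxaliplatin calls against untreated of GPX4, AKR1C1, SOD2 and FTL were lost, while GCLC, MGST1, TXNRD1, PRDX3, TKT and TFRC were called lower. Beyond that correction the part of length was not tested. In total the 44 entries took 1.06% to 1.12% of counts with oxaliplatin, 1.26% to 1.32% with sorafenib and 1.32% to 1.44% in untreated cells.

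A wider list of 126 other genes of these pathways, listed as 127 entries, of which 112 were tested, gave 13 higher and 32 lower with oxaliplatin against untreated (40.2% called; 11.6% higher and 28.6% lower). Over all genes tested 31.7% were called, 16.2% higher and 15.5% lower. Library-size scaling gave 17 higher and 20 lower of the list, and the GC and length correction 10 higher and 40 lower. All genes shifted too, to 3395 higher and 1794 lower of 16159, and to 1837 higher and 3334 lower of 16005. For other glutathione genes the counts were 1 higher and 11 lower of 26, for other thioredoxin genes 3 higher and 6 lower of 15, for other iron genes 4 higher and 4 lower of 22, and for other ferroptosis genes 2 higher and 5 lower of 16. Other NRF2 partners gave 2 lower of 10, and other NADPH and phase II genes 3 higher and 4 lower of 23. With sorafenib against untreated the list gave 4 higher and 3 lower (6.25%, against 4.8% of all genes). The split was 6 and 4 by DESeq2 and 4 and 5 with the GC and length correction, against 1010 and 795 of 16264 and 488 and 734 of 16005 over all genes. Oxaliplatin against sorafenib gave 3 higher and 6 lower (8.04%, against 10.3% of all genes). The split was 3 and 3 by library size, 3 and 11 by DESeq2 and 4 and 15 with the GC and length correction. Over all genes these splits were 1072 and 599 of 16159, 1173 and 1261 of 16264, and 984 and 1375 of 16005.

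The leading genes of that list were named by adjusted p. SLC39A8, a metal importer that carries zinc, manganese and iron, had 169.6, 173 and 142 CPM with oxaliplatin, 37.4, 37.7 and 43.6 CPM with sorafenib and 58.7, 42.3 and 47.8 CPM in untreated cells. The oxaliplatin values were far above the 6 others (1.70 ± 0.14 against untreated, adjusted p = 0.000467; 2.03 ± 0.15 against sorafenib, adjusted p = 8.44e-05). TXNIP, the protein that binds and inhibits thioredoxin, had 184, 199 and 176 CPM with oxaliplatin, 173, 183 and 193 CPM with sorafenib and 90.1, 66.5 and 59.3 CPM in untreated cells. Both drug groups lay above untreated for TXNIP (1.37 ± 0.15 with oxaliplatin, adjusted p = 0.00104; 1.35 ± 0.15 with sorafenib, adjusted p = 0.00215). ACO1, the cytosolic aconitase that doubles as an iron-regulatory protein, had 101, 111 and 95.8 CPM with oxaliplatin, 61.1, 62.1 and 66.4 CPM with sorafenib and 73.6, 68.6 and 67.7 CPM in untreated cells, and was higher with oxaliplatin against untreated (0.55 ± 0.10, adjusted p = 0.00436) and against sorafenib (0.70 ± 0.10, adjusted p = 0.00330). MBOAT2, a phospholipid acyltransferase, was higher with oxaliplatin against untreated (0.59 ± 0.12, adjusted p = 0.00687; 0.16 and adjusted p = 0.240 with the GC and length correction).

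Among the leading falls with oxaliplatin against untreated were RBX1, a subunit of the ligase that marks NRF2 for destruction (-0.88 ± 0.15), SLC3A2, the heavy chain of the cystine importer (-0.88 ± 0.15), and MGST3, a microsomal glutathione transferase (-0.60 ± 0.10), with adjusted p between 0.00344 and 0.00394. SLC3A2 had 164, 158 and 180.4 CPM with oxaliplatin, 253, 220.5 and 191 CPM with sorafenib and 244, 335 and 342 CPM in untreated cells. Its oxaliplatin values lay below the 6 others. Against sorafenib, SCD, a fatty acid desaturase (-0.99 ± 0.12, adjusted p = 0.00116), and MGST3 (-0.58 ± 0.10, adjusted p = 0.00794) were lower with oxaliplatin, as were the small MAF protein MAFF (-0.66 ± 0.15, adjusted p = 0.0253) and GLO1, which detoxifies methylglyoxal (-0.49 ± 0.12, adjusted p = 0.0351). MBOAT2 was higher there (0.59 ± 0.12, adjusted p = 0.0170). The calls of MBOAT2, MAFF and GLO1 against sorafenib were each lost without oxaliplatin replicate 1 or 2 or sorafenib replicate 1, among others (adjusted p = 0.0510 to 0.104).

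With sorafenib against untreated, the export pump ABCC3 (0.87 ± 0.14, adjusted p = 0.0109) and the glutathione-conjugate exporter ABCC1 (0.96 ± 0.23, adjusted p = 0.0465) were higher. ABCC3 had 411, 426 and 395 CPM with oxaliplatin, 473, 506 and 474 CPM with sorafenib and 327, 234 and 232 CPM in untreated cells, so both drug groups lay above untreated. SCD was also higher with sorafenib (0.50 ± 0.12, adjusted p = 0.0431). HSPB1, a small heat shock protein (-1.18 ± 0.22, adjusted p = 0.0204), CHAC1, which degrades glutathione (-1.08 ± 0.23, adjusted p = 0.0341), and GGCT, a further enzyme of glutathione breakdown (-0.77 ± 0.18, adjusted p = 0.0436), were lower with sorafenib. Of these 6 calls, those of ABCC3, HSPB1 and CHAC1 were lost on leaving out untreated replicate 2 or 3 or sorafenib replicate 2, among others (adjusted p = 0.0519 to 0.140), and those of ABCC1, SCD and GGCT on leaving out any 1 of 7 libraries (0.0533 to 0.172). The calls of ABCC1, SCD and GGCT were also lost on the 2 groups alone and with the replicate number as a block (adjusted p = 0.0772 to 0.105).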

How the data were processed

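Per the labels' protocols, messenger RNA from TRIzol extracts was cut into fragments, reverse-transcribed and sequenced on an Illumina NovaSeq 6000. The authors deposited 1 table of raw counts per gene for each of the 9 libraries. Per the submitters' processing notes, featureCounts, DESeq2 and the build GRCh38 were used, while versions, aligner and strand setting are not given in the sources used here. The 43 genes and the lists were chosen with earlier results of these data known.

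Counts were fitted in edgeR 4.0.16 (R 4.3.3) with TMM scaling, filterByExpr and a robust quasi-likelihood F test, with 1 coefficient per group over all 9 libraries and Benjamini-Hochberg adjustment over the 16159 genes tested. CPM use TMM-scaled library sizes, with totals of 15797076 to 20936536 counts. All 43 genes are named. Of the other pathway genes, up to 4 per comparison and direction are named, those with the smallest adjusted p and a mean of at least 1 CPM. A result that this rule would name is not reported here. Libraries of a group differed by more than sampling noise (chi-square per degree of freedom 16.9 to 36.3). On simulated counts for oxaliplatin against untreated, 200 genes were changed and 15822 were tested. The test recovered 5 of 50 genes changed 1.5-fold, 28 of 50 changed 2-fold, 36 of 50 changed 3-fold and 45 of 50 changed 4-fold. Of 125 calls 11 were false. Lengths, GC content and shared 100-base stretches came from GENCODE v29, which matched all 44 entries by identifier. Alternatives were DESeq2 1.42.0, other scalings and filters, a fit on the compared groups alone, the replicate number as a block, a loess correction (span 0.5) for GC content and length, a 2-fold minimum and leaving out each library.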

Additional observations from a re-analysis of the deposited data

How the results depend on the processing

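Of the 20 calls in oxaliplatin against untreated, 12 held under all 17 alternative fits. The 8 that were lost under at least 1 were AIFM2, AKR1C1, CAT, FTL, GPX4, HMOX1, SOD2 and TALDO1. The number called ran between 14 and 22 over the left-out libraries and was 1 with a 2-fold minimum, against 2913 to 5403 and 1512 over all genes. Neither of the 2 sorafenib calls held under all 17, and for oxaliplatin against sorafenib 2 of 10 did, AKR1B1 and AKR1C3, of which AKR1B1 also passed the 2-fold minimum. For sorafenib against untreated, 9 were called by DESeq2, 4 with the GC and length correction, 1 with no filter, 0 with library size, on the 2 groups alone or with a 2-fold minimum, and 0 to 6 over the left-out libraries. The calls over all genes moved as well, from 775 to 1805 by DESeq2, 1222 with the GC and length correction and 113 to 1743 over the left-out libraries. All genes gave 825 calls with no filter, 787 with library size, 311 on the 2 groups alone and 314 with a 2-fold minimum. For oxaliplatin against sorafenib, 17 were called by DESeq2, 1 with a 2-fold minimum, and 2 to 12 over the left-out libraries. Here the calls over all genes went from 1659 to 2434 by DESeq2, 602 with a 2-fold minimum and 572 to 1949 over the left-out libraries. Besides the main calls, DESeq2 called GPX1, TXNRD1, SRXN1 and PRDX3 in oxaliplatin against untreated, and MGST1, TXNRD1, SRXN1, PGD, AKR1C1, SOD1 and TFRC against sorafenib. The GC and length correction added KEAP1 and TXN in sorafenib against untreated, and GCLC, MGST1, TXNRD1, IDH1, SOD1 and TFRC in oxaliplatin against sorafenib, where it lost PRDX1. Over all genes in oxaliplatin against untreated, the split was 2619 higher and 2504 lower, against 3395 and 1794 with library size and 1837 and 3334 with the GC and length correction. Causes of these changes were not tested. In the simulation 200 genes were changed, and few of those changed 1.5-fold were recovered. Many more genes were called in the data (5123 in oxaliplatin against untreated), so that recovery need not hold there. Differences of the size seen in most of these genes may still be missed.

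No pairing of the libraries by replicate number was seen, which with 3 libraries per group does not exclude a shared batch. Deviations from group means correlated at -0.11 to 0.036 between libraries of the same number, and 0 of 9 libraries correlated best with their own number. With the replicate number as a block, 18 genes were called in oxaliplatin against untreated, 0 in sorafenib against untreated and 6 in oxaliplatin against sorafenib, and LPCAT3 with sorafenib turned to 0.0037. Over all genes the block gave 3773, 184 and 809 calls of 16159, against 5123, 775 and 1659 without it.

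Log2 fold changes that turned sign were all of genes not called in the comparison concerned. In oxaliplatin against untreated these were TKT (0.025) and ME1 (0.038) with library size, and IDH1 (-0.023), AKR1C2 (-0.16), TFRC (-0.34, then called) and ACSL4 (-0.071) with the GC and length correction; over the left-out libraries ME1 ran from -0.22 to 0.027, TFRC from -0.021 to 0.071 and ACSL4 from -0.055 to 0.48. In sorafenib against untreated they were GCLC (-0.11), MGST1 (-0.079) and AKR1C1 (-0.20) with the GC and length correction, AKR1C1 (-0.0039) with RLE factors, FTH1 (0.025), NCOA4 (0.018) and LPCAT3 (0.033) with library size, and LPCAT3 with a minimum of 1 CPM (0.0040) or on the 2 groups alone (0.00075). Over the left-out libraries AKR1B10 ran from -0.0068 to 0.58, AKR1C1 from -0.16 to 0.19, FTH1 from -0.082 to 0.075, NCOA4 from -0.0669 to 0.036 and LPCAT3 from -0.085 to 0.089. In oxaliplatin against sorafenib they were GPX4 (0.013), SOD2 (-0.049), TKT (-0.011) and ACSL4 (-0.12) with the GC and length correction, TALDO1 with library size (0.032) and with that correction (0.034), and NFE2L2 (0.025) and GSR (0.0046) with library size. Over the left-out libraries GPX4 ran from -0.23 to 0.018 and TALDO1 from -0.11 to 0.076, NFE2L2 reached 0.12 without sorafenib replicate 3, GSR 0.0047 without the same library, ME1 -0.054 without oxaliplatin replicate 2 and ACSL4 -0.31 without oxaliplatin replicate 1.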
